A study of Mus musculus with 16 samples.

Results

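The effect of losing both Nova genes that brain and spinal cord share was described over all 16 of the 16 arrays of the series, 8 from double knockout and 8 from wild type embryos. Every sample came from a CD1 mouse, an outbred stock, at embryonic stage E18.5. Brain and cord were whole tissues, and each tissue gave 4 arrays from wild type and 4 from Nova1/2 double knockout embryos, with 1 array for each biological replicate. The sources used here do not give the exons deleted by the knockout alleles, the sex of the embryos or any litters, so p-values measure the spread between these arrays. In the shared comparison tissue was a term of the model and genotype the tested term, so the change averaged over both tissues was tested. This may reach changes that 4 arrays against 4 in a single tissue do not. A change that is large in a single tissue and small in the other can be called as well.

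Nova1 and Nova2 are RNA-binding proteins of neurons that attach to clusters of a short motif, a CA pair between pyrimidines, in newly made transcripts. Where they bind decides the outcome: binding at an alternative exon or upstream of it favours skipping, and binding downstream of it favours inclusion. Many transcripts known to carry such exons encode proteins of the synapse, of the membrane skeleton and of axon guidance. The array measures exons through probe sets, small groups of probes that mostly lie in a single exon.

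Levels are log2 values of the deposited intensity plus 16, so that a difference of 1 is about a 2-fold difference for a bright probe set and a larger fold for a dim one, whose change this scale understates. The level of a gene is the median over those of its probe sets that were brighter than 6.73, a floor set at the middle of the mean values of the probe sets. The exon index of a probe set is the difference between its own log2 value and the gene level measured by that array, so a changed index means that the probe set changed relative to its gene. Positions of probe sets within genes were not used here, so probe sets are given by their identifiers and not as named exons. A changed index can come from a cassette exon, from another start or end of the transcript or from a sequence variant under the probes.

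The arrays matched their labels for tissue. Hox genes, which mark the spinal cord and hindbrain, had mean log2 levels of 6.19 to 7.38 on the 8 brain arrays and 8.90 to 9.29 on the 8 cord arrays, and pan-neuronal genes had levels of 10.82 to 11.33 on all 16. Median intensities ran from 72.3 to 116 over the arrays. Skeletal muscle genes ranged more in cord, with wild type means of 7.66 to 9.71 and double knockout means of 7.46 to 9.21, and wild type cord 1 and 4 and double knockout cord 2 and 4 were the arrays rich in them. Expression of Xist and of Y-linked genes marked 4 wild type arrays as female and 4 as male, and 7 double knockout arrays as female and 1 as male. The counts of called genes, overall and by list, are therefore also given without the 4 muscle-rich cord arrays and with sex as a term. Arrays with the same number in brain and cord differed in sex in 4 of 4 wild type pairs and in 1 of 4 double knockout pairs, so a shared number does not mark a single embryo.

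The targeted genes were lower on every double knockout array. Nova1 read 10.25, 10, 10.72 and 10.13 on the wild type brain arrays and 4.64, 5.51, 5.29 and 5.51 on the double knockout brain arrays. In cord, Nova1 read 11.94, 11.66, 11.52 and 11.65 on the wild type cord arrays and 6.38, 6.28, 6.54 and 6.33 on the double knockout cord arrays. All 8 double knockout values lay below the floor, so the size of the fall was not measured; the fitted difference was -5.17 (limma adjusted p = 3e-17, n = 8 against 8). Nova2 read 8.67, 8.45, 8.75 and 8.79 on the wild type brain arrays and 8.03, 7.85, 7.77 and 8 on the double knockout brain arrays. In cord, Nova2 read 8.63, 8.23, 8.61 and 8.39 on the wild type cord arrays and 7.39, 7.17, 7.41 and 7.31 on the double knockout cord arrays. Its genotypes did not overlap in either tissue and its shared change was -0.95 (SE 0.0879, adjusted p = 8.49e-07), with 12 of its 16 probe sets lower on their own signal and none higher. Probe sets outside the deleted part of an allele do not check the deletion.

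At the level of whole genes, 488 of 14570 genes changed in the shared fit, 3.35% of those tested, and most of them fell. The shared fit called 384 genes lower, 2.64% of genes tested, and 104 higher, 0.714% (limma, two-sided test, Benjamini-Hochberg adjusted p under 0.05, n = 8 against 8). The median change over all genes tested was 0.00. All 488 had the same sign in brain and in cord, and for 176 the 4 double knockout arrays lay beyond the 4 wild type arrays in each tissue, where 1.31% of all genes tested did so. The same arrays chose the genes, so equal sign and separation are in large part set by that choice and are given as a description. In RNA from whole tissues, fewer cells of a type and less RNA per cell cannot be told apart. An unadjusted p under 0.05 was reached by 2291 genes.

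Fitted within each tissue over the same 16 arrays, 33 of the 488 genes were called in both tissues, 351 in cord and not in brain, 4 in brain and not in cord, and 100 in neither. The counts over all genes were 39 in brain, 0.268% of those tested, and 820 in cord, 5.63%. The change was larger in cord for 418 of the 488, with a median size of 0.265 in brain and 0.517 in cord. The difference between the tissues was tested for every gene with an interaction term, and limma called 0 genes, with 1166 at an unadjusted p under 0.05, of which 167 were among the 488. A call in 1 tissue and not in the other is thus not shown to differ between them.

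The number of called genes rested in part on single cord arrays. It was 281 without double knockout cord 3, 282 without double knockout cord 4, 288 without double knockout cord 2 and 319 without wild type cord 3, and from 329 to 548 without any other array. Of the 488 genes, 261 were called in all 16 of these fits. Without the 4 muscle-rich cord arrays 112 genes were called, 111 of them among the 488. The parts of muscle content and of the smaller number of arrays in this were not tested. With sex as a term 380 genes were called, 53 higher and 327 lower, and 334 of the 488 were among them. Of 484 X-linked genes tested 15 were called, or 3.1%, and 12 of these were also called with the sex term. Every gene and probe set whose values are given array by array below was called in all 16 of the fits without 1 array.

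The rise with the lowest adjusted p was that of Cpne3. Cpne3 encodes a copine, a calcium-dependent phospholipid-binding protein. Cpne3 read 8.14, 8.48, 8.19 and 8.08 on the wild type brain arrays and 9.34, 9.43, 9.37 and 9.60 on the double knockout brain arrays. In cord, Cpne3 read 7.80, 7.64, 7.76 and 7.63 on the wild type cord arrays and 8.89, 8.87, 8.74 and 8.80 on the double knockout cord arrays. Every double knockout array was higher than every wild type array of its tissue, and the shared change was 1.17 (SE 0.0692, adjusted p = 6.65e-10 by limma, n = 8 against 8). Its brain and cord changes were 1.21 and 1.12.

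Scn9a, the gene of a voltage-gated sodium channel known from sensory neurons, had the largest shared rise. Scn9a read 7.86, 8.44, 9 and 8.13 on the wild type brain arrays and 9.46, 9.61, 9.90 and 9.61 on the double knockout brain arrays. In cord, Scn9a read 8.66, 8.42, 7.85 and 8.54 on the wild type cord arrays and 9.76, 9.57, 9.72 and 9.49 on the double knockout cord arrays. The wild type arrays spread widely, yet no double knockout array fell among them, and the change was 1.27 (SE 0.134, adjusted p = 4.76e-06). On their own signal 27 of its 31 probe sets rose and none fell. The other tested genes of the Schwann cell and dorsal root ganglion list, 10 of them, were not called, among them Prph, a neurofilament-related gene of sensory and motor neurons (0.30, adjusted p = 0.38), and the sensory sodium channel gene Scn11a (0.16, adjusted p = 0.267).

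Atg4a encodes a protease that processes a ubiquitin-like protein of autophagy. Atg4a read 7.44, 7.81, 7.39 and 7.56 on the wild type brain arrays and 8.92, 8.65, 8.90 and 8.54 on the double knockout brain arrays. In cord, Atg4a read 7.72, 7.35, 7.23 and 7.38 on the wild type cord arrays and 8.41, 8.35, 8.10 and 8.42 on the double knockout cord arrays. The genotypes were apart in both tissues, with a shared change of 1.05 (SE 0.0934, adjusted p = 4.74e-07), and 10 of its 11 probe sets rose. Both syntaxin genes among the largest rises, Stx2 (0.75, adjusted p = 0.000131) and Stx4a (0.58, adjusted p = 0.000131), encode membrane fusion proteins. Atm, the DNA damage kinase, rose by 0.59, Cdk5rap2, a protein of the centrosome, by 0.58, and Hps5, a subunit of a complex for lysosome-related organelles, by 0.55. The incretin receptor gene Gipr rose by 0.86 (adjusted p = 0.00716, and 0.15 without the muscle-rich cord arrays) and Pnmal1 by 0.56. Counted over tested genes in RefSeq order, Gipr lies 11 and Pnmal1 9 genes from Nova2.

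Falls made up most of the calls, and that of Dzip1 was the largest after Nova1. Dzip1 encodes a zinc finger protein at the base of the primary cilium. Dzip1 read 10.24, 9.99, 10.68 and 10.24 on the wild type brain arrays and 8.62, 8.91, 8.86 and 8.87 on the double knockout brain arrays. In cord, Dzip1 read 10.99, 10.60, 10.91 and 10.69 on the wild type cord arrays and 9.21, 9.11, 9.32 and 9.26 on the double knockout cord arrays. The 2 genotypes were more than 1 log2 unit apart at their closest arrays in each tissue. Its shared change was -1.52 (SE 0.0894, adjusted p = 6.65e-10), and all 24 of its probe sets fell on their own signal, from -1.61 to -0.53.

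Dlg3 encodes SAP102, a scaffold protein of glutamatergic synapses. Dlg3 read 9.51, 9.50, 9.27 and 9.55 on the wild type brain arrays and 7.90, 7.84, 7.79 and 7.87 on the double knockout brain arrays. In cord, Dlg3 read 9.20, 8.93, 9.08 and 9.10 on the wild type cord arrays and 7.79, 7.93, 7.90 and 8.04 on the double knockout cord arrays. Every double knockout array lay below every wild type array of its tissue, with changes of -1.61 in brain and -1.17 in cord and a shared change of -1.39 (SE 0.0807, adjusted p = 6.65e-10). With the sex term the change of this X-linked gene was -1.36 (adjusted p = 1.26e-08). Of its 28 probe sets 23 fell, 1 rose and 4 were not called on their own signal.

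Rab12, a small GTPase of membrane traffic, and Ahi1, a protein of the ciliary transition zone, fell by similar amounts. Rab12 read 10.76, 10.67, 10.31 and 10.73 on the wild type brain arrays and 9.90, 9.85, 9.79 and 9.81 on the double knockout brain arrays. In cord, Rab12 read 10.45, 10.21, 10.13 and 10.12 on the wild type cord arrays and 9.22, 9.40, 9 and 9.30 on the double knockout cord arrays. All 8 double knockout arrays were lower than the wild type arrays of their tissue, and the shared change was -0.89 (SE 0.083, adjusted p = 8.76e-07). Ahi1 read 10.91, 10.89, 11.34 and 11 on the wild type brain arrays and 10.17, 10.20, 10.45 and 10.26 on the double knockout brain arrays. In cord, Ahi1 read 11.36, 10.90, 11.14 and 11.07 on the wild type cord arrays and 10.24, 10.16, 10.11 and 9.96 on the double knockout cord arrays. The Ahi1 arrays of the genotypes did not overlap either, and its change was -0.88 (SE 0.0854, adjusted p = 1.54e-06).

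**Figure D1:**
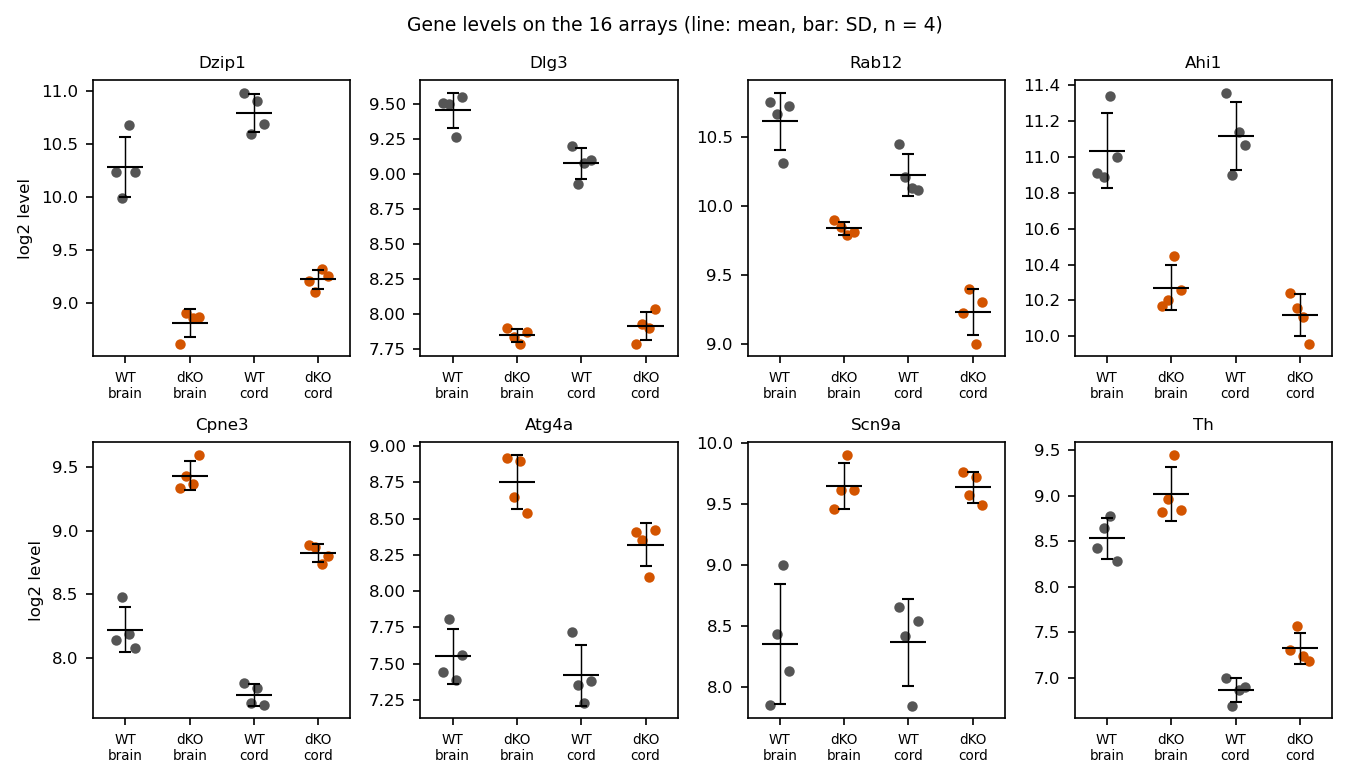
Log2 level (vertical axis) of 8 genes on each of the 16 arrays, as points for wild type (WT, grey) and double knockout (dKO, orange) brain and cord, with lines for group means and bars for the SD (n = 4). Dzip1, Dlg3, Rab12 and Ahi1 were lower and Cpne3, Atg4a, Scn9a and Th higher on every double knockout array than on the wild type arrays of the same tissue.

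For several genes the estimated fall was larger in cord. Tuba4a, an alpha-tubulin gene, changed by -0.57 in brain and -1.61 in cord (shared -1.09, adjusted p = 0.000132), and Cx3cl1, the gene of the chemokine fractalkine, by -0.39 and -1.46 (shared -0.93, adjusted p = 0.00076). Dtd1, a proofreading enzyme of transfer RNA charging, changed by -0.96 and -1.71 (shared -1.33), and Rasgrp2, an activator of Rap proteins, by -1.03 and -1.55 (shared -1.29). Rassf4 (-1.18), Lynx1, a modulator of nicotinic receptors (-1.17), and Rwdd2a (-1.14) showed the same order of brain and cord. For none of these 7 genes was the tissue difference called.

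The kinase gene Lmtk3 fell by 0.88 and the sodium bicarbonate transporter gene Slc4a10 by 0.96, with the genotypes apart in both tissues. Pglyrp1, a gene of peptidoglycan recognition that lies 2 tested genes from Nova2, fell by 0.96.

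**Figure D2:**
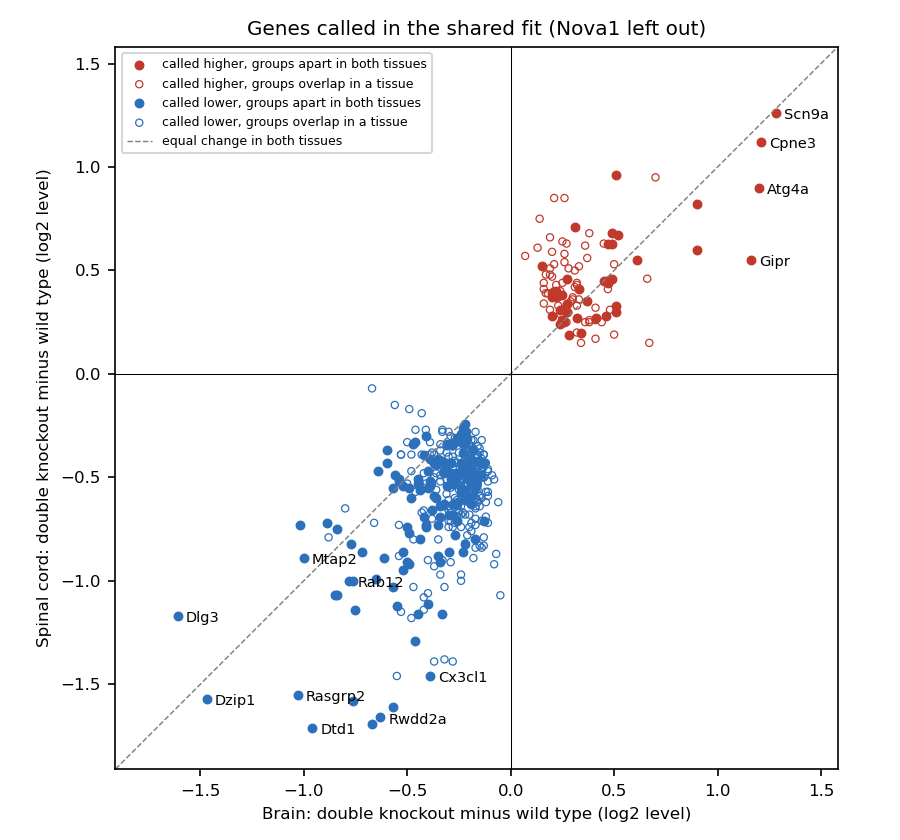
Change of the log2 level from wild type to double knockout in brain (horizontal axis) and spinal cord (vertical axis) for the genes called in the shared fit other than Nova1. Red marks genes called higher, blue lower, and filled points those whose genotypes did not overlap in either tissue; all points lie in the quadrants of equal sign, and 418 of 488 called genes had the larger change in cord.

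The shared fit reached 100 genes that were called in neither tissue, and in 28 of them the genotypes did not overlap in either tissue. Th encodes tyrosine hydroxylase, the first enzyme of catecholamine synthesis. Th read 8.42, 8.65, 8.78 and 8.28 on the wild type brain arrays and 8.82, 8.96, 9.45 and 8.84 on the double knockout brain arrays. In cord, Th read 7, 6.69, 6.86 and 6.90 on the wild type cord arrays and 7.30, 7.57, 7.24 and 7.18 on the double knockout cord arrays. The rise was 0.49 in brain (adjusted p = 0.288) and 0.46 in cord (adjusted p = 0.0618), and over both tissues 0.47 (SE 0.0971, adjusted p = 0.00803).

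Rims1 encodes a protein of the presynaptic active zone. Rims1 read 9.40, 9.27, 9.76 and 9.32 on the wild type brain arrays and 8.82, 8.92, 9.15 and 8.99 on the double knockout brain arrays. In cord, Rims1 read 9.66, 9.33, 9.50 and 9.55 on the wild type cord arrays and 9.19, 9.09, 9.21 and 9.18 on the double knockout cord arrays. The genotypes were apart in each tissue by small gaps, and the shared change was -0.40 (SE 0.0785, adjusted p = 0.00522). Its probe sets did not all move one way: on their own signal 19 of 43 fell and 5 rose, the highest by 0.90, with p adjusted over the probe sets that have an exon index.

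Sept8 encodes a septin, a filament-forming GTPase. Sept8 read 8.79, 9, 8.89 and 8.77 on the wild type brain arrays and 9.39, 9.32, 9.09 and 9.27 on the double knockout brain arrays. In cord, Sept8 read 8.96, 8.81, 8.92 and 8.72 on the wild type cord arrays and 9.10, 9.14, 9.10 and 9.13 on the double knockout cord arrays. All double knockout arrays were higher, with a shared change of 0.34 (SE 0.0658, adjusted p = 0.00546). The other rises of this kind were those of Slc44a1, a choline transporter (0.36), Cdc25a, a phosphatase of the cell cycle (0.30), Crb1, a polarity protein (0.41), and Npr2, a natriuretic peptide receptor (0.37). The falls were those of Shank3, a scaffold of glutamatergic synapses (-0.38), Acer2, a ceramidase (-0.36), B3galt5, a galactosyltransferase (-0.41), Hecw2, a ubiquitin ligase (-0.33), and Agbl4, a tubulin carboxypeptidase (-0.40). Their adjusted p ranged from 0.00779 to 0.0196. Of the 12 genes only Crb1 kept its call without the 4 muscle-rich cord arrays, where the adjusted p was 0.0503 for Sept8, 0.0703 for Th and 0.104 for Rims1.

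Relative to their genes, 720 of 193126 probe sets changed in the shared fit, 0.373% of those tested, and they lay in 377 of 12340 genes. In contrast to gene levels, both directions were frequent, with 399 called higher (0.207%) and 321 lower (0.166%). The genotypes did not overlap in either tissue for 520 of them, where this held for 0.372% of all probe sets tested; here too the same arrays chose the probe sets. An unadjusted p under 0.05 was reached by 15721. The own log2 signal moved in the same direction as the index for 630 of the 720 and was itself called for 445. Where the genotypes did not overlap and the own signal moved with the index, 232 probe sets were higher and 226 lower, in 263 genes.

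The median sizes in brain and cord were much closer than for gene levels. The median size was 0.621 in brain and 0.67 in cord, and 370 of the 720 were larger in cord. All 720 had the same sign in both tissues, which the choice by their average largely sets, and the interaction term called 1 probe set, of Epb4.1l2, or 0.000518% of those tested. An unadjusted p under 0.05 for the limma interaction term was reached by 10955 probe sets, of which 157 were among the 720. Within the tissues, 184 of the 720 were called in both, 67 in brain and not in cord, 173 in cord and not in brain, and 296 in neither, 172 of these with no overlap of the genotypes in either tissue. Over all probe sets, brain called 290 (0.15%) and cord 750 (0.388%).

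Most of the called probe sets lay in genes whose level was not called. Of the 377 genes 103 were also called in level, and 446 of the 720 probe sets lay in genes that were not. When the genes called in level were left out and the rest adjusted again, 353 probe sets were called. The number of called probe sets ranged from 527 to 674 without 1 array, and 479 of the 720 were called in all 16 of these fits. It was 318 without the 4 muscle-rich cord arrays, with 305 of the 720 among them, and 505 with the sex term, with 469 of the 720 among them. A probe set passed the floor by its mean over all arrays, so the dimmer genotype of a large change can lie near or below it. Sizes are not well measured there. With the floor required in every group 620 probe sets were called, 558 of them among the 720.

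The largest rise outside the neighbourhood of the Nova genes was in Ank3, the gene of ankyrin-G, which organises the axon initial segment. The index of probe set 5060679 read -3.39, -2.59, -3.76 and -3.32 on the wild type brain arrays and -0.24, -0.25, -0.14 and -0.17 on the double knockout brain arrays. In cord, Ank3 read -3.43, -3.63, -3.87 and -3.33 on the wild type cord arrays and -0.58, -0.73, -0.75 and -0.62 on the double knockout cord arrays. In wild type this probe set was far dimmer than its gene on all 8 arrays, and in double knockout it came to within 1 log2 unit of it. The shared change of the index was 2.98 (SE 0.126, limma adjusted p = 1.02e-09, n = 8 against 8), and its own signal rose by 2.89. Of the 70 Ank3 probe sets 3 were called, all higher.

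Probe set 4489731 of Grik2, a subunit of kainate-type glutamate receptors, behaved alike. Its index read -3.61, -2.71, -3.74 and -3.25 on the wild type brain arrays and -0.38, -0.40, -0.78 and -0.28 on the double knockout brain arrays. In cord, Grik2 read -3.81, -3.95, -3.66 and -3.90 on the wild type cord arrays and -1.05, -0.91, -0.78 and -0.79 on the double knockout cord arrays. The lowest double knockout array stood well above the highest wild type array in each tissue. The change was 2.91 (SE 0.122, limma adjusted p = 1.02e-09). On the wild type arrays the own signal was 5.87 to 7.17, mostly below the floor of 6.73, so this size is not well measured.

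Gphn encodes gephyrin, which anchors glycine and GABA-A receptors. Its probe set 4309091 read -1.74, -1.56, -1.96 and -1.92 on the wild type brain arrays and 0.82, 1.16, 1.19 and 0.70 on the double knockout brain arrays. In cord, Gphn read -1.47, -1.67, -1.42 and -1.30 on the wild type cord arrays and 0.71, 0.75, 0.92 and 0.72 on the double knockout cord arrays. The index crossed from below to above the level of the gene, a change of 2.50 (SE 0.107, adjusted p = 1.02e-09), while the level of Gphn was not called (-0.15, adjusted p = 0.31). Gphn lies 119 tested genes from Nova1 in RefSeq order.

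Adam22 encodes a synaptic receptor of the secreted protein LGI1. Probe set 4415391 read -3.52, -2.77, -3.60 and -3.08 on the wild type brain arrays and -1.01, -0.81, -0.81 and -1.32 on the double knockout brain arrays. In cord, Adam22 read -3.18, -3.25, -2.91 and -2.99 on the wild type cord arrays and -0.48, -0.58, -0.45 and -0.59 on the double knockout cord arrays. No array of one genotype reached the other, and the change was 2.41 (SE 0.118, adjusted p = 4.57e-09). Its own signal on the wild type arrays was 5.92 to 6.92, near or below the floor of 6.73. Another Adam22 probe set, 4785224, rose by 2.16, and a further one, 4442753, fell by 0.61.

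Smarcc2 encodes a core subunit of the BAF chromatin remodelling complex. Probe set 5174790 read -3.12, -2.21, -3.74 and -3.08 on the wild type brain arrays and -0.69, -0.54, -0.60 and -0.97 on the double knockout brain arrays. In cord, Smarcc2 read -3.84, -5.21, -3.66 and -3.81 on the wild type cord arrays and -1.15, -1.44, -1.10 and -1.21 on the double knockout cord arrays. Wild type cord 2 stood apart as the lowest array, and every double knockout array was higher than every wild type array. The change was 2.62 (SE 0.223, limma adjusted p = 5e-06). On the wild type cord arrays the own signal was 5.03 to 6.84, near or below the floor of 6.73.

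The largest called change of an index was in Snx6, a sorting nexin of endosomes. Probe set 5413633 read -4.07, -0.34, -4.30 and -3.36 on the wild type brain arrays and 0, 0.14, 0.14 and 0 on the double knockout brain arrays. In cord, Snx6 read -2.99, -4.16, -3.92 and -3.06 on the wild type cord arrays and 0.76, 0.11, -0.03 and 0.06 on the double knockout cord arrays. Wild type brain 2 read close to the double knockout arrays and far from the other 7 wild type arrays. On those 7 arrays the own signal was 5.33 to 6.81, near or below the floor of 6.73. The change was 3.42 (SE 0.422, adjusted p = 0.000333), and brain alone did not call it (3.08, adjusted p = 0.0647), whereas cord did (3.76, adjusted p = 0.0103). Snx6 lies 16 tested genes from Nova1 in RefSeq order. The Zfp84 probe set 4485701, which rose by 2.30, lies 162 from Nova2.

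A further 7 probe sets were among the 15 largest rises in which the own signal also rose. Probe sets of Chl1 and Ncam2, adhesion molecules of the immunoglobulin superfamily, rose by 1.96 and 1.95. That of Gria3, an AMPA-type glutamate receptor subunit, rose by 1.77, that of Slc8a1, a sodium-calcium exchanger, by 1.82, and that of Atp6v0a1, a subunit of the vesicular proton pump, by 1.81. Mtss1, a protein that links actin to membranes, held a probe set that rose by 1.83, and Lrrfip1 one that rose by 1.70. Adjusted p for these 7 ranged from 2.75e-07 to 2.13e-05, and the genotypes did not overlap in either tissue.

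Among falls, the largest was in Aff3, a nuclear protein of the AF4/FMR2 family. Probe set 5291502 read 0.96, 1.02, 1.11 and 1.31 on the wild type brain arrays and -2.63, -2.76, -2.97 and -2.65 on the double knockout brain arrays. In cord, Aff3 read 1.25, 1.40, 1.05 and 1.57 on the wild type cord arrays and -1.57, -1.22, -1.49 and -1.43 on the double knockout cord arrays. In wild type the probe set was brighter than its gene on all 8 arrays and in double knockout dimmer on all 8. On the double knockout brain arrays its own signal was 5.87 to 6.82, near or below the floor of 6.73. The shared change was -3.30 (SE 0.159, adjusted p = 3.97e-09), with -3.85 in brain and -2.74 in cord, and the interaction was not called (adjusted p = 0.172).

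Ptprf encodes LAR, a receptor phosphatase of axon guidance and synapse formation. Probe set 5321146 read -1.39, -1.65, -1.63 and -1.32 on the wild type brain arrays and -4.85, -4.60, -4.76 and -4.74 on the double knockout brain arrays. In cord, Ptprf read -1.60, -1.51, -1.15 and -1.08 on the wild type cord arrays and -4.29, -3.77, -3.80 and -3.78 on the double knockout cord arrays. It was dimmer than its gene in every array and fell further by 2.91 (SE 0.126, limma adjusted p = 1.07e-09), with no overlap of the genotypes. The own signal on the 8 double knockout arrays was 5.13 to 5.99, below the floor of 6.73, so the size of the fall was not measured. A second Ptprf probe set, 4361865, moved the other way, by 1.11, while most of its 41 probe sets were not called.

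The change with the lowest adjusted p was in Cdh23, a cadherin known from hair cells of the inner ear. Probe set 5030559 read 1.65, 1.69, 1.49 and 1.52 on the wild type brain arrays and -0.13, -0.30, -0.25 and -0.48 on the double knockout brain arrays. In cord, Cdh23 read 1.27, 1.53, 1.41 and 1.48 on the wild type cord arrays and -0.55, -0.53, -0.33 and -0.50 on the double knockout cord arrays. Arrays within a genotype lay close together in both tissues, and the change was -1.89 (SE 0.0645, adjusted p = 1.26e-10), with -1.88 in brain and -1.90 in cord.

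Hecw1, a ubiquitin ligase of neurons, gave an equal change in brain and cord. Probe set 5277374 read 0.64, 0.44, 0.80 and 0.65 on the wild type brain arrays and -0.95, -0.87, -1.05 and -0.85 on the double knockout brain arrays. In cord, Hecw1 read 0.99, 1.05, 1.16 and 1.14 on the wild type cord arrays and -0.42, -0.64, -0.40 and -0.41 on the double knockout cord arrays. The index fell by 1.56 in each tissue (SE 0.063, adjusted p = 1.01e-09), and the wild type arrays of both tissues stayed above 0 while all double knockout arrays lay below it.

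Clasp2 encodes a protein that binds growing ends of microtubules. Probe set 4448088 read 0.01, -0.11, -0.28 and -0.08 on the wild type brain arrays and -2.03, -1.97, -1.64 and -2.07 on the double knockout brain arrays. In cord, Clasp2 read 0.42, -0.09, -0.02 and 0.08 on the wild type cord arrays and -2.07, -1.71, -2.27 and -1.92 on the double knockout cord arrays. The wild type probe set was about as bright as its gene and the double knockout one was dimmer on all 8 arrays, a change of -1.95 (SE 0.1, adjusted p = 8.81e-09). Its relative Clasp1 held a probe set, 5352483, that fell by 1.27 and another, 4472966, that rose by 0.51.

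**Figure D3:**
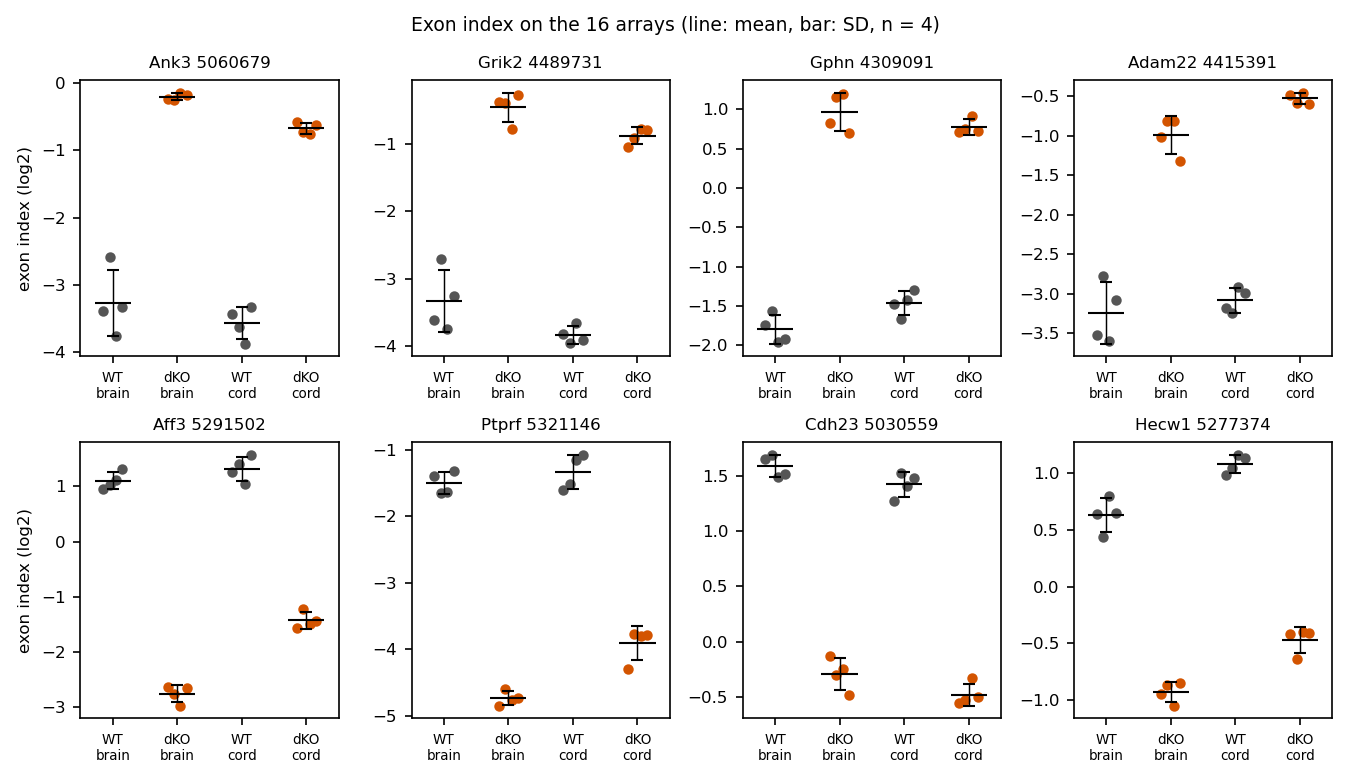
Exon index (vertical axis, log2) of 8 probe sets on each of the 16 arrays, with points for wild type (WT, grey) and double knockout (dKO, orange) brain and cord, lines for group means and bars for the SD (n = 4). The probe sets of Ank3, Grik2, Gphn and Adam22 were higher and those of Aff3, Ptprf, Cdh23 and Hecw1 lower on every double knockout array, by shared changes from -3.30 to 2.98.

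Further falls were in Hisppd1, an inositol pyrophosphate kinase (-2.21), Aplp2, a relative of the amyloid precursor protein (-1.90), and Sorbs2, an adaptor of the actin skeleton (-1.79). They were also in Nrxn3, a presynaptic neurexin (-1.63), Erbb4, a neuregulin receptor (-1.59), and Mtap7d2, a microtubule-associated protein (-1.58). Bptf, a chromatin remodeller, held a probe set that fell by 1.55 and the secreted factor gene Fam19a2 one that fell by 1.5. Adjusted p for these 8 ranged from 5.49e-08 to 0.000731, and the genotypes did not overlap in either tissue.

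**Figure D4:**
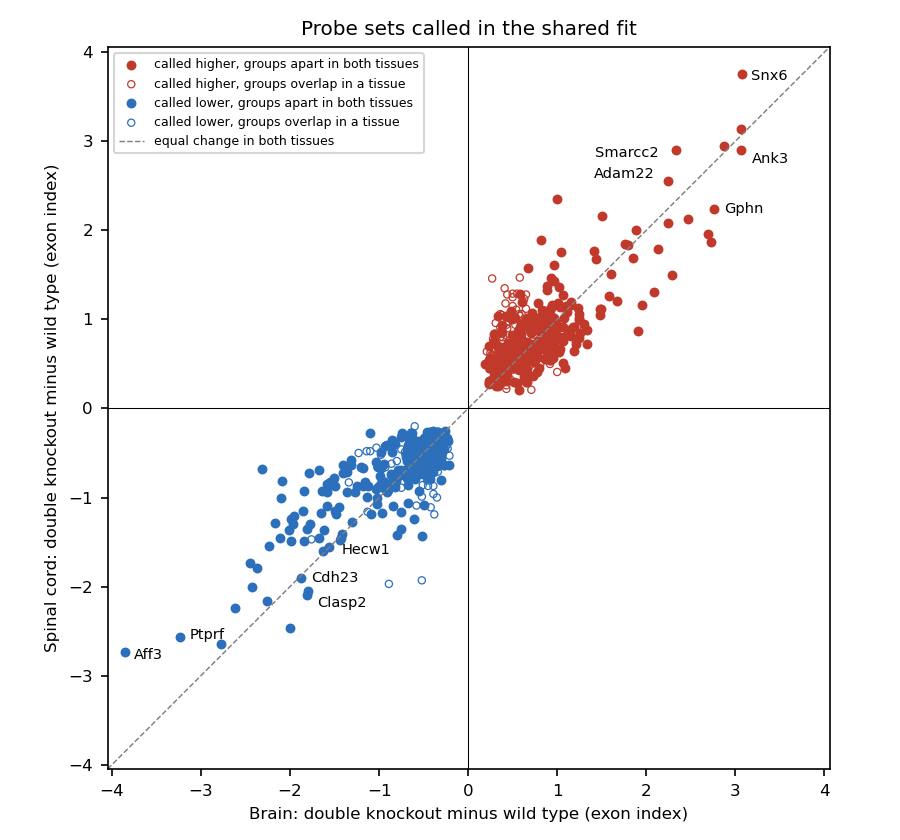
Change of the exon index from wild type to double knockout in brain (horizontal axis) and spinal cord (vertical axis) for the 720 called probe sets. Red marks probe sets called higher, blue lower, and filled points those whose genotypes did not overlap in either tissue. The dashed line marks equal change, and the median sizes were 0.621 in brain and 0.67 in cord.

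The shared fit called 296 probe sets that neither tissue reached, and these were smaller changes. In Gria2, an AMPA-type receptor subunit, probe set 5535923 read -1.48, -0.79, -1.27 and -0.90 on the wild type brain arrays and -0.54, -0.38, -0.32 and -0.34 on the double knockout brain arrays. In cord, Gria2 read -1.27, -1.24, -0.89 and -1.13 on the wild type cord arrays and -0.74, -0.57, -0.51 and -0.22 on the double knockout cord arrays. The gap between the genotypes was narrow but present in both tissues, and the index rose by 0.67 (SE 0.101, adjusted p = 0.00315; 0.0919 in brain and 0.0871 in cord). Without the 4 muscle-rich arrays its adjusted p was 0.101. Altogether 4 of 34 Gria2 probe sets were called, all higher.

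Ogdh encodes a subunit of the oxoglutarate dehydrogenase of mitochondria. Probe set 5415045 read -1.78, -1.56, -1.56 and -1.65 on the wild type brain arrays and -2.10, -2.36, -2.30 and -2.06 on the double knockout brain arrays. In cord, Ogdh read -1.50, -1.72, -1.47 and -2.06 on the wild type cord arrays and -2.11, -2.34, -2.24 and -2.39 on the double knockout cord arrays. The fall was 0.56 in brain and 0.58 in cord and the shared change -0.57 (SE 0.0846, adjusted p = 0.00235). It was still called without the 4 muscle-rich cord arrays (-0.57, adjusted p = 0.00891).

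Map4k4 encodes a kinase of stress signalling and cell migration. Probe set 5458867 read 0.14, 0.12, 0.33 and 0.08 on the wild type brain arrays and 0.40, 0.54, 0.61 and 0.59 on the double knockout brain arrays. In cord, Map4k4 read 0.23, 0.27, 0.31 and 0.32 on the wild type cord arrays and 0.62, 0.67, 0.65 and 0.57 on the double knockout cord arrays. The change of 0.36 (SE 0.0536, adjusted p = 0.00273) was small, and the genotypes did not overlap. Without the 4 muscle-rich arrays its adjusted p was 0.0771.

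Of the remaining 9 probe sets chosen in this way, Grin1, the obligatory NMDA receptor subunit (0.79), Tpm3, a tropomyosin (0.87), and Smarce1, another BAF subunit (0.81), held one that rose. Syne2, a nesprin of the nuclear envelope (-0.62), Lmtk3 (-0.51), Speg, a kinase of muscle (-0.81), and the chromatin regulator gene Mll5 (-0.54) held one that fell. Their adjusted p ranged from 0.00174 to 0.00312. For Mtap2 probe set 4569436 (0.91) and Nova2 probe set 5584026 (0.47) the index rose while the own signal did not, at -0.04 and -0.48, and the level of each gene fell by 0.95. The own signal was not called for Grin1 (0.31, adjusted p = 0.292) or Syne2 (-0.25, adjusted p = 0.268) either. Without the 4 muscle-rich arrays the adjusted p was 0.0865 for Smarce1, 0.0712 for Mll5, 0.0543 for Lmtk3 and 0.229 for Mtap2, and the other 5 kept their calls.

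Some genes held probe sets that moved in opposite directions. Counting only probe sets that were apart in both tissues and moved on their own signal, 38 genes held at least 1 of each kind. The genes described here were chosen among them after their values were seen, and the following counts are over all called probe sets of each gene. In Sorbs2 4 probe sets fell, by 1.54 to 1.79 relative to the gene, and 7 rose, by up to 1.42. Lrrfip1 held 6 that rose, up to 1.70, and 7 that fell, down to -1.06. Bin1, a membrane-bending protein of endocytosis, held 6 that rose (up to 1.05) and 3 that fell (down to -0.85). In Gria3 the rise of 1.77 stood beside falls of 4 probe sets between -0.55 and -0.42. Erbb4 held a rise of 1.05 beside the fall of 1.59, and Nrxn3 a rise of 0.58 beside its 2 falls.

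Dlg3 combined a lower gene level with both kinds of probe set. Its probe set 5344442 fell to a greater degree than the gene, by 3.32 on its own signal and by 1.93 in index. On the double knockout arrays that own signal was 5.96 to 6.77, near or below the floor of 6.73, so these sizes are not well measured. Probe set 5485223 rose by 0.92 on its own signal and by 2.30 in index. On the 16 arrays the index of 5485223 read -2.32, -2.55, -2.04 and -2.21 on the wild type brain arrays and 0.35, 0.53, 0.40 and 0.55 on the double knockout brain arrays. In cord, Dlg3 probe set 5485223 read -1.54, -1.67, -2.02 and -1.48 on the wild type cord arrays and 0.38, -0.04, 0.29 and 0.14 on the double knockout cord arrays. It was dimmer than the gene on all wild type arrays and brighter on 7 of the 8 double knockout arrays.

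For Mtap2, the gene of the dendritic microtubule protein MAP2, the gene level did not describe the probe sets. The level changed by -0.95 (SE 0.0837, adjusted p = 4.68e-07), but the median change of its 35 probe sets on their own signal was -0.11. In all, 6 of the 35 fell, down to -2.08, and 29 were not called. The index of 29 probe sets was called higher and of 4 lower. With the gene level taken as a mean, the change was -0.29. The counts of called probe sets outside Mtap2 were 687, of which 370 were higher. Among the 488 called genes, 13 differed by more than 0.25 between the change of the level and the median change of their probe sets, and all 488 had the same sign by both measures.

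**Figure D5:**
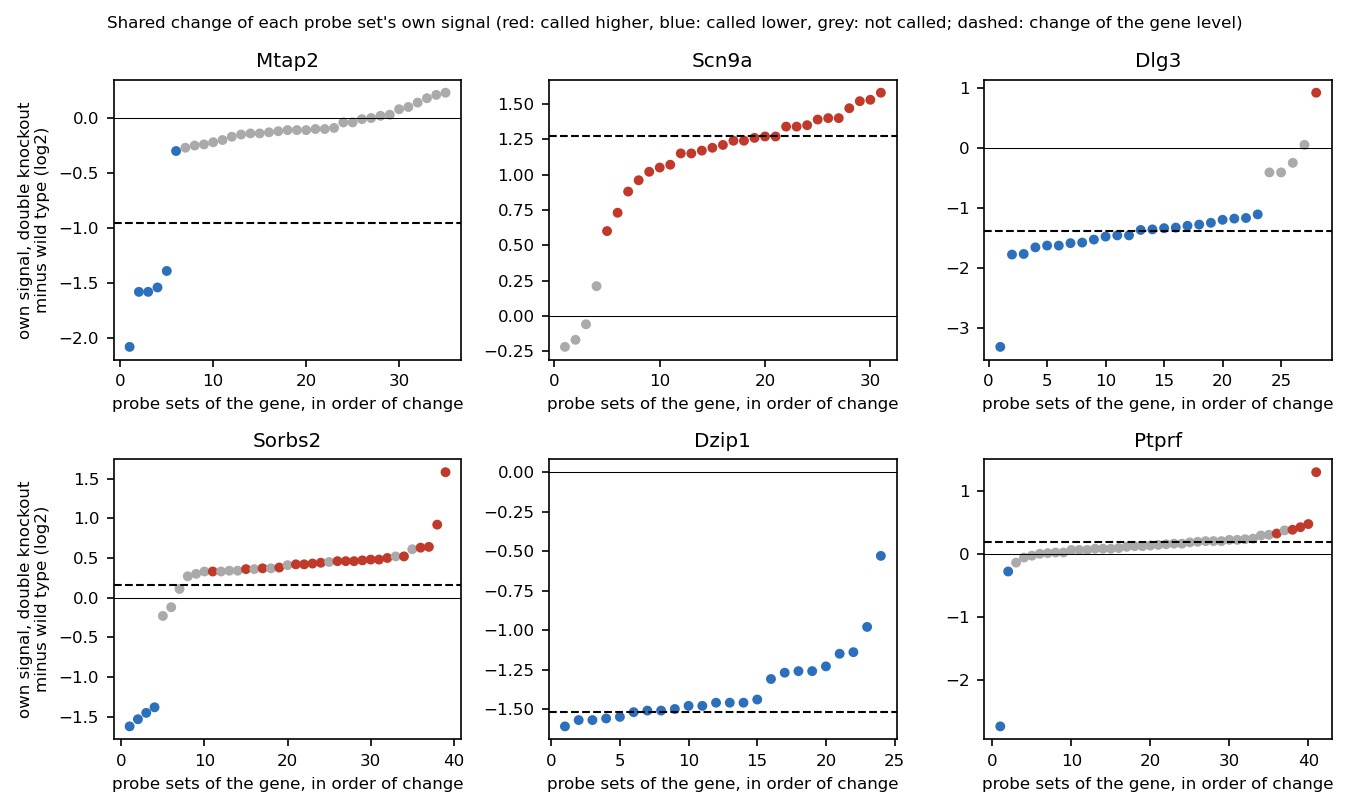
Shared change of the own log2 signal (vertical axis) of every tested probe set of 6 genes, in order of change along the horizontal axis, with points in red where called higher, blue where called lower and grey where not called, and a dashed line at the change of the gene level. All 24 probe sets of Dzip1 fell and 27 of 31 of Scn9a rose, whereas 6 of 35 fell in Mtap2 and single probe sets of Dlg3 and Ptprf stood far from the others.

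Genes known from the literature as Nova splicing targets were also counted. Of 32 tested, 21 held at least 1 called probe set, 51 of their 1119 probe sets in all, where 3.06% of all genes held one. Nova1 is one of the 21, with 6 of the 51, and these rest on double knockout values below the floor. The targets had a median of 32 probe sets per gene and all genes 13, and the list was chosen with published work on Nova mice and earlier results of these data known, so the count is not independent evidence. The called probe set of lowest adjusted p rose for Gphn, Ank3, Adam22, Chl1, Neo1, a netrin receptor relative (1.19), Mapk9, a stress kinase (1.40), and Sgce, a sarcoglycan (0.64). It fell for Ptprf, Clasp2, Aplp2, Camk2g, a calmodulin-dependent kinase subunit (-1.32), and Clasp1. It also fell for Cask, a scaffold kinase (-0.92), Mtap4, a microtubule protein (-0.96), Dcc, a netrin receptor (-0.65), and Clstn1, a calsyntenin (-0.68). The membrane skeleton genes Epb4.1l3 (-0.96) and Epb4.1l2 (-0.97) held falls as well. The calls of Glra2 (0.25, limma adjusted p = 0.0396) and Dab1 (0.60, limma adjusted p = 0.043) were near the threshold. They were made in only 2 and 4 of the 16 fits without 1 array. Their own signals were not called, at 0.01 (limma adjusted p = 0.977) and 0.22 (limma adjusted p = 0.423), while the gene levels changed by -0.25 and -0.37. For Dab1 the genotypes overlapped in both tissues. The Clstn1 probe set changed by -1.1 in brain and -0.27 in cord (adjusted p = 0.234 in cord), and the interaction was not called (adjusted p = 0.157). Its call was lost with the sex term (adjusted p = 0.0561). It was also lost without both brain arrays of number 3 and with the numbers as a block within each tissue. Without the muscle-rich cord arrays the adjusted p was 0.182 for Sgce. Targets with no called probe set in the shared fit included Agrn (lowest adjusted p = 0.148), Mapt (0.206) and Rap1gap (0.315). The Agrn probe set was called in brain (-1.05, limma adjusted p = 0.000523) and not in cord (-0.09), and its interaction was not called (adjusted p = 0.415).

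In level 5 of the 32 targets were called lower and 0 higher, where 2.64% of all genes were lower, with a median of -0.14 against 0.00 over all genes. With the sex term 4 of the 5 were called, and without the muscle-rich cord arrays 1, Nova1. One of the 5 was Nova1. Epb4.1l3 fell by 0.40 (limma adjusted p = 0.0159), with changes of -0.21 in brain and -0.59 in cord. Aplp2 fell by 0.29 (limma adjusted p = 0.0303), with changes of -0.13 in brain and -0.45 in cord. The fall of Aplp2 was no longer called after removal of wild type cord 1, 2 or 3 or any of the 4 double knockout cord arrays.

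Genes of the microtubule and cytoskeleton list and of the membrane skeleton and adhesion list were counted in the same way. In the first, 10 of 26 genes held a called probe set and 4 were called in level, Mtap2, Tuba4a and Mtap1a (-0.60) lower and Dcx higher, where 2.64% of all genes were lower and 0.714% higher. With the sex term 3 of the 4 were called, and without the muscle-rich cord arrays 2, Mtap2 and Tuba4a. The probe sets of Mtap2 had a median change of only -0.11 on their own signal. In the second, 14 of 26 held a called probe set, among them Ank2, Ank3, Nrcam, Chl1, Nrxn3, Nlgn1, Ptprf, Ptprs, Neo1, Dcc and Robo2, and 2 were called lower in level, of which 1 was called with the sex term and 0 without the muscle-rich cord arrays. The share over all genes was 3.06%, and both lists had more probe sets per gene, with medians of 28 and 39 against 13.

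Among genes of inhibitory synapses, 9 of the 18 tested were called lower in level and 0 higher, with a median change of -0.30, against 2.64% lower and a median of 0.00 over all genes. They include Gad1, an enzyme of GABA synthesis (-0.43), Slc32a1, the vesicular transporter of GABA and glycine (-0.51), and Slc6a5, a transporter that takes glycine back into neurons (-0.84). Receptor subunits for GABA among them were Gabrb1 (-0.50), Gabra5 (-0.48) and Gabra3 (-0.36). The glycine receptor subunits Glra3 (-0.46), Glrb (-0.49) and Glra2 (-0.25) were also among them. Gabrb1 read 9.16, 9.02, 9.36 and 9.18 on the wild type brain arrays and 8.70, 8.68, 8.95 and 8.61 on the double knockout brain arrays. In cord, Gabrb1 read 9.34, 9.04, 8.82 and 9.26 on the wild type cord arrays and 8.60, 8.42, 8.58 and 8.60 on the double knockout cord arrays. Its genotypes were apart in both tissues (adjusted p = 0.000862). Of the 9 calls, 8 held in all 16 fits without 1 array, the exception being Glra2, 8 held with the sex term and 3, of Gad1, Gabra5 and Gabrb1, without the muscle-rich cord arrays. Pan-neuronal genes had a median change of 0.00 (0.00 in brain and -0.08 in cord), with Mtap2, Thy1 (-0.88), Nefh (-0.63) and Eno2 (-0.62) lower and the other 11 of 15 not called. Their mean level was 11.06 to 11.33 in wild type and 10.82 to 11.06 in double knockout cord. In brain it was 11.03 to 11.22 and 10.94 to 11.09. With the sex term all 4 falls were called. Without the muscle-rich cord arrays 1 was, Mtap2, whose probe sets had a median change of only -0.11 on their own signal. The part of a shift in cell numbers in these falls was not tested.

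Genes of glutamatergic synapses were called in 4 of 22 cases, all lower, with a median of -0.12, where 2.64% of all genes were lower. Dlg3 led, and Grin1 (-0.48, limma adjusted p = 0.00435) and Shank3 (-0.38, limma adjusted p = 0.0167) followed. Grin1 changed by -0.29 in brain and -0.67 in cord, and Shank3 by -0.35 and -0.41. All 4 were called with the sex term, and 1, Dlg3, without the muscle-rich cord arrays, where the adjusted p was 0.086 for Grin1. Of presynaptic genes 6 of 23 were lower and 0 higher, with a median of -0.17, against 2.64% lower and 0.714% higher over all genes. Syt2, a calcium sensor of fast release, fell by 1.01 (adjusted p = 0.000673), Cplx1, a complexin, by 0.58 (adjusted p = 0.00163) and Rims1 by 0.40. The other 3, Syp, Syn2 and Sv2b, were called in only 7, 5 and 2 of the 16 fits without 1 array. Of the 6, 4 were called with the sex term and 1, Cplx1, without the muscle-rich cord arrays, where the adjusted p was 0.052 for Syt2.

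Among 20 genes of voltage-gated channels 1 rose, Scn9a, and 4 fell, with a median of -0.18, where 0.714% of all genes were higher and 2.64% lower. All 5 were called with the sex term, and 3, Scn9a, Scn2a1 and Kcnc1, without the muscle-rich cord arrays. Scn2a1, a sodium channel of axons, fell by 0.53 (adjusted p = 3.76e-05), to the same degree in brain (-0.54) and cord (-0.52). Kcnc1, a potassium channel of fast-spiking neurons, fell by 0.46 (adjusted p = 0.000565). Among 32 splicing regulators, the CELF family member Tnrc4 rose (0.43, adjusted p = 0.0157), and Nova1 and Nova2 were the ones that fell, against the same 0.714% higher and 2.64% lower over all genes. All 3 were called with the sex term, and without the muscle-rich cord arrays the adjusted p for Tnrc4 was 0.204. The probe sets called in this list lay in Nova1, Nova2, A2bp1, a Fox family splicing factor, and Cugbp2, another CELF family member.

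Markers of other cell types were measured beside these groups. Microglial (14 tested), endothelial (10), erythroid (3), skeletal muscle (15), cartilage (8), fibroblast (11), choroid plexus (10) and cell cycle genes (13) had 0 members called in level. Over all genes 2.64% were called lower and 0.714% higher, and at these shares lists this short hold few calls. The mean level of microglial genes was 7.79 to 7.95 in wild type and 7.95 to 8.06 in double knockout brain, and 7.83 to 8.29 and 7.48 to 7.74 in cord. Oligodendrocyte genes had 3 of 11 lower, Olig1 (-0.49), a transcription factor of the lineage, Pdgfra (-0.39) and Cspg4 (-0.35), and their mean level was 8.43 to 8.72 in wild type cord and 8.25 to 8.35 in double knockout cord. All 3 were called with the sex term and 0 without the muscle-rich cord arrays. Hox genes had 1 of 22 members called, Hoxa9, and immediate early genes 1 of 7, Nr4a1, and neither call held in all 16 fits without 1 array, with the sex term or without the muscle-rich cord arrays. The call of Cspg4 held in 8 of the 16 fits without 1 array. In brain, the oligodendrocyte levels overlapped, at 8.31 to 8.45 and 8.34 to 8.43. Of 13 astrocyte genes 1 was lower, Aldoc, a glycolytic enzyme (-0.35, limma adjusted p = 0.0455), with changes of -0.11 in brain and -0.59 in cord. Aldoc was called in 3 of the 16 fits, with the sex term and not without the muscle-rich cord arrays. The mean level of astrocyte genes was 9.61 to 9.98 in wild type and 9.34 to 9.55 in double knockout cord, with no overlap, and 9.51 to 9.69 and 9.55 to 9.78 in brain. That of erythroid genes was 8.06 to 8.24 in wild type and 7.64 to 7.83 in double knockout cord. Of 10 immature neuron genes 2 were higher, Sox11 (0.53) and Dcx (0.32), transcription factor and microtubule protein of young neurons. Sox11 changed by 0.21 in brain and 0.85 in cord and Dcx by 0.07 and 0.57, and in brain the genotypes overlapped for both. They were called in 9 and 4 of the 16 fits. Of these genes Sox11 was called with the sex term and neither without the muscle-rich cord arrays. Their list had mean levels of 9.44 to 9.66 in wild type and 9.82 to 9.86 in double knockout cord. Sox11 lies 50 tested genes from Nova1. The part of these cell types in the falls of neuronal genes was not tested.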

How the data were processed

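Each of the 16 samples was hybridised to 1 exon array. Per the submitters' processing notes, the authors summarised the deposited intensity values with PLIER in Affymetrix Power Tools, and the build named is mm8; versions and any scaling between arrays are not stated in the sources. The intensities are linear. Values were computed as log2(intensity + 16) in R 4.3.3 and not scaled further. Of 625534 probe sets, 303629 carried 1 gene symbol, 5892 several and 316013 none, and those with 1 symbol were used. Gene symbols matched current RefSeq names for 12415 tested genes and synonyms for 2150, with 5 unmatched.

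Gene levels used at least 3 probe sets above the floor of 6.73, and exon indices genes with at least 5. limma 3.58.1 (lmFit, eBayes) fitted tissue and genotype over all arrays, and 4 group means for brain, cord and their difference, with Benjamini-Hochberg adjustment at 0.05 over all features. On simulated data with the real spread, the shared gene fit recovered 90 of the 100 genes given a change of 0.5 and 99 of the 100 given a change of 1, with 5 false calls. The exon fit recovered 52 of 100 at 0.5 and 95 of 100 at 1, with 3 false calls. The simulated noise was independent for every feature and array. Muscle content, sex and joint deviations of arrays were thus not simulated, and these rates need not hold for the real arrays. The number of arrays limits the precision.

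Same-numbered arrays of the 2 genotypes deviated together in brain (gene level r from 0.21 to 0.41 in 4 of 4 pairs) and not in cord (-0.12 to 0), and brain and cord of a number did not (-0.15 to 0.04). The labels do not say what a number shares. The shared fit had no block, and fits with one were alternatives.

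Genes to name were chosen by a rule, and not all of them are printed. The rule took Nova1, Nova2 and the 15 largest rises and 15 largest falls among called genes with no overlap of the genotypes in either tissue. From the same called genes it took the 12 of lowest adjusted p called in neither tissue. It also took up to 3 members of each list. Probe sets followed the same rule with 1 per gene, and for the largest rises and falls the own signal had to move with the index. Those of Nova1 are not described, since its gene level lay below the floor on every double knockout array. Each Nova target gave its probe set of lowest adjusted p. Predicted clone genes and sex-linked markers were left out. Further genes were named as members of counts. The members and lists were chosen with earlier results of these data known. Alternatives changed the pseudocount, floor, gene level, scaling, block, sex term and arrays used. Sequences and positions of probe sets were not used here.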

Additional observations from a re-analysis of the deposited data

Results flagged for a closer look

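Single arrays stood apart from the other 3 of their group in 18 of 396 groups checked. The measure is the gap of the outermost array to its neighbour as a share of the range of the group, and values above Dixon's critical value for 4 arrays are given. Chance gives about 1 such group in 20.

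Among gene levels, Stx2 had a share of 0.839 in wild type brain, where array 1 read 7.78 and the others 8.22 to 8.3, and of 0.88 in wild type cord, where array 3 read 7.63. Dtd1 had 0.904 in wild type brain (array 4, 9.81) and Rwdd2a 0.882 in the same group (array 4, 7.15). Double knockout cord 1 stood above its group for Tuba4a (0.885; 8.73 against 8.13 to 8.19) and Cx3cl1 (0.901; 9.01 against 8.73 to 8.76). Cx3cl1 also had 0.841 in wild type brain (array 3, 9.94), and Slc4a10 had 0.836 in double knockout brain (array 3, 9.31).

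Among exon indices, the Smarcc2 probe set 5174790 had 0.883 in wild type cord (array 2, -5.21). In double knockout cord, Gphn 4309091 had 0.837 (array 3, 0.92), Ptprf 5321146 had 0.937 (array 1, -4.29), Hecw1 5277374 had 0.916 (array 2, -0.64), and Smarce1 4345590 had 1 with a range of only 0.01. In double knockout brain, Erbb4 4723182 had 0.873 (array 4, -2.7), Mtap7d2 5193976 had 0.871 (array 4, -1.11) and Mtap2 4569436 had 0.839 (array 3, -1.13). In wild type brain, Neo1 4334084 had 0.833 (array 2, 0.3) and Epb4.1l3 5517310 had 0.901 (array 1, -0.16).

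The exon index of Epb4.1l2 probe set 4959500 differed between the tissues by the interaction term (limma adjusted p = 0.0468), with changes of -2.31 in brain and -0.68 in cord. Among 106412 probe sets above the floor that carried no gene symbol, 464 changed on their own signal (0.436%), 224 of them higher, and in 310 the genotypes did not overlap in either tissue.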

How the results depend on the processing

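The cause of each change below was not tested unless it is stated. The counts of 488 genes and 720 probe sets stayed within 1.5 times under most alternatives. Without the 4 muscle-rich cord arrays 112 genes and 318 probe sets were called, in brain arrays alone 24 and 192, and in cord arrays alone 579 and 200. Leaving out the genes called in level, and so testing fewer genes, gave 353 probe sets. Without 1 array the counts were 281 to 548 genes and 527 to 674 probe sets; gene counts moved by more than that without wild type cord 3 (319) and double knockout cord 2 (288), 3 (281) and 4 (282). The share of called genes that were lower was 78.7%, and 68% without wild type cord 1.

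With a replicate block, the numbers as a fixed block gave 546 genes and 614 probe sets, as a random block 604 and 840, averaged over tissues 451 and 548, and within each tissue, added after the data were seen, 537 and 506. With the sex term the counts were 380 and 505. Tissue differences were counted here only among genes and probe sets that the shared fit of the same setting also called. In the main fit such a difference was called for 0 genes and 1 probe set. With pseudocount 64 it was called for 4 genes and 2 probe sets, and with no floor for 1 and 0. With the floor at the 75th percentile it was called for 7 genes. It was called for 1 gene and 0 probe sets with the gene level as mean, 24 and 0 after quantile normalization, and 10 genes after centring. The fixed block gave 6 and 0, the block within tissues 1 and 0, both brain arrays of number 3 left out 6 and 0, and the trended robust fit 4 genes. Pseudocount 1, the random block, the sex term and removal of the muscle-rich arrays gave 0 probe sets. Without 1 array it ranged from 0 to 9 genes and from 0 to 1 probe sets.

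Of the called results chosen for naming, printed or not, 80 of 122 kept their call under every alternative in which they were tested. The fits of brain arrays alone and of cord arrays alone were not counted here. Among the counted alternatives only Acer2 changed sign, to 0.18 (adjusted p = 0.494) under the 75th percentile floor.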

Other observations

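Shared changes were also counted around the targeted genes. Within 100 tested genes of Nova1 or Nova2 in RefSeq order, 21 of 397 genes were called in level, or 5.29%, against 3.35% of all genes, and 29 of 4657 probe sets, or 0.623%, against 0.373%. These differences were not tested. Without these genes 460 genes and 672 probe sets were called.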
